A study of Saccharomyces cerevisiae with 33 samples.

Results

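The 38 genes described here carry budding yeast (*Saccharomyces cerevisiae*) from G1 into S phase and copy its DNA. They were chosen by name, as G1 cyclins, G1/S regulators and enzymes of deoxynucleotide synthesis, replication, repair and sister chromatid cohesion, out of 5449 genes with a probe set on Affymetrix Yeast Genome 2.0 arrays. All 38 were found, each by 1 probe set, and the mean signal of none of them lay below the background level of 5.47 (log2 signal), the 95th percentile of the 1746 probe sets whose genes are not in the *S. cerevisiae* gene table used here. The series holds 33 arrays in 11 groups of 3. A reference strain, CEN.PK113-7D, and derivatives of it that lack *OPI1* (*opi1*Δ), *INO4* (*ino4*Δ), *INO2* (*ino2*Δ) or the last 2 together (*ino2*Δ*ino4*Δ) were grown in chemostats at 1 fixed dilution rate. Glucose was limiting (C-limited, 18 arrays) or nitrogen was (N-limited, 15 arrays). Inositol and choline were added to the medium of every group. The paper's methods call all strains prototrophic, but its spot test found those lacking *INO2*, *INO4* or both to be auxotrophic for inositol. The C-limited *opi1*Δ cultures oscillated and were sampled at maximum and at minimum CO2 production, which are separate groups here. Each genotype was represented by 1 strain. The labels number the arrays of a group without saying which came from the same culture, so p-values measure the spread between these arrays, which may be technical.

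In yeast, the cyclin Cln3 with the kinase Cdc28 starts the G1/S programme by freeing the transcription factors SBF (Swi4 and Swi6) and MBF (Mbp1 and Swi6) from the repressor Whi5. SBF and MBF then switch on the cyclins *CLN1*, *CLN2*, *CLB5* and *CLB6* and a large group of replication genes, most of which peak together in late G1. Ino2 and Ino4 form an activator of phospholipid genes such as *INO1*, and Opi1 represses it. The deletions studied therefore do not remove a member of the G1/S programme, and the members are read here across strains, limiting nutrients and CO2 phases. Levels are log2 signals. A signal is not comparable between probe sets, so each gene is compared only with itself.

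Some arrays stood apart from the others or went against their labels. The *OPI1* signal lay between 4.91 and 5.43 on the 9 *opi1*Δ arrays and between 7.10 and 8.26 on the other 24. *INO2* and *INO4* lay below 5.47 on every array whose strain lacks the gene, except that *INO4* stood at 6.64 on the array labelled C-limited *ino2*Δ*ino4*Δ replicate 1. *INO4* was also low on the arrays labelled C-limited *ino2*Δ replicates 2 and 3 (5.08 and 5.06, against 6.53 on replicate 1), and *INO2* was low on the array labelled C-limited *ino4*Δ replicate 3 (5.19, against 6.34 and 6.18 on replicates 1 and 2). These 4 arrays were kept in their labelled groups, and counts without them are given. A further 5 arrays shared a deviation from the other arrays of their groups: replicates 1 and 3 of *opi1*Δ at minimum CO2, replicate 1 of the N-limited reference and replicates 1 and 3 of N-limited *ino2*Δ*ino4*Δ. On these 5 the signal of *HAC1*, the regulator of the unfolded protein response, was 6.35, 6.45, 6.31, 7.04 and 6.87, against 9.39, 9.31, 9.82 and 10.19 on the remaining arrays of the same groups. Several members moved with it, as described with each comparison, and counts without the 5 arrays are given as well. The share of all genes called in fits that leave out arrays is not given here. Counts of members from those fits therefore have no background beside them. Medians of whole arrays ranged from 7.14 to 7.44.

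**Figure D1:**
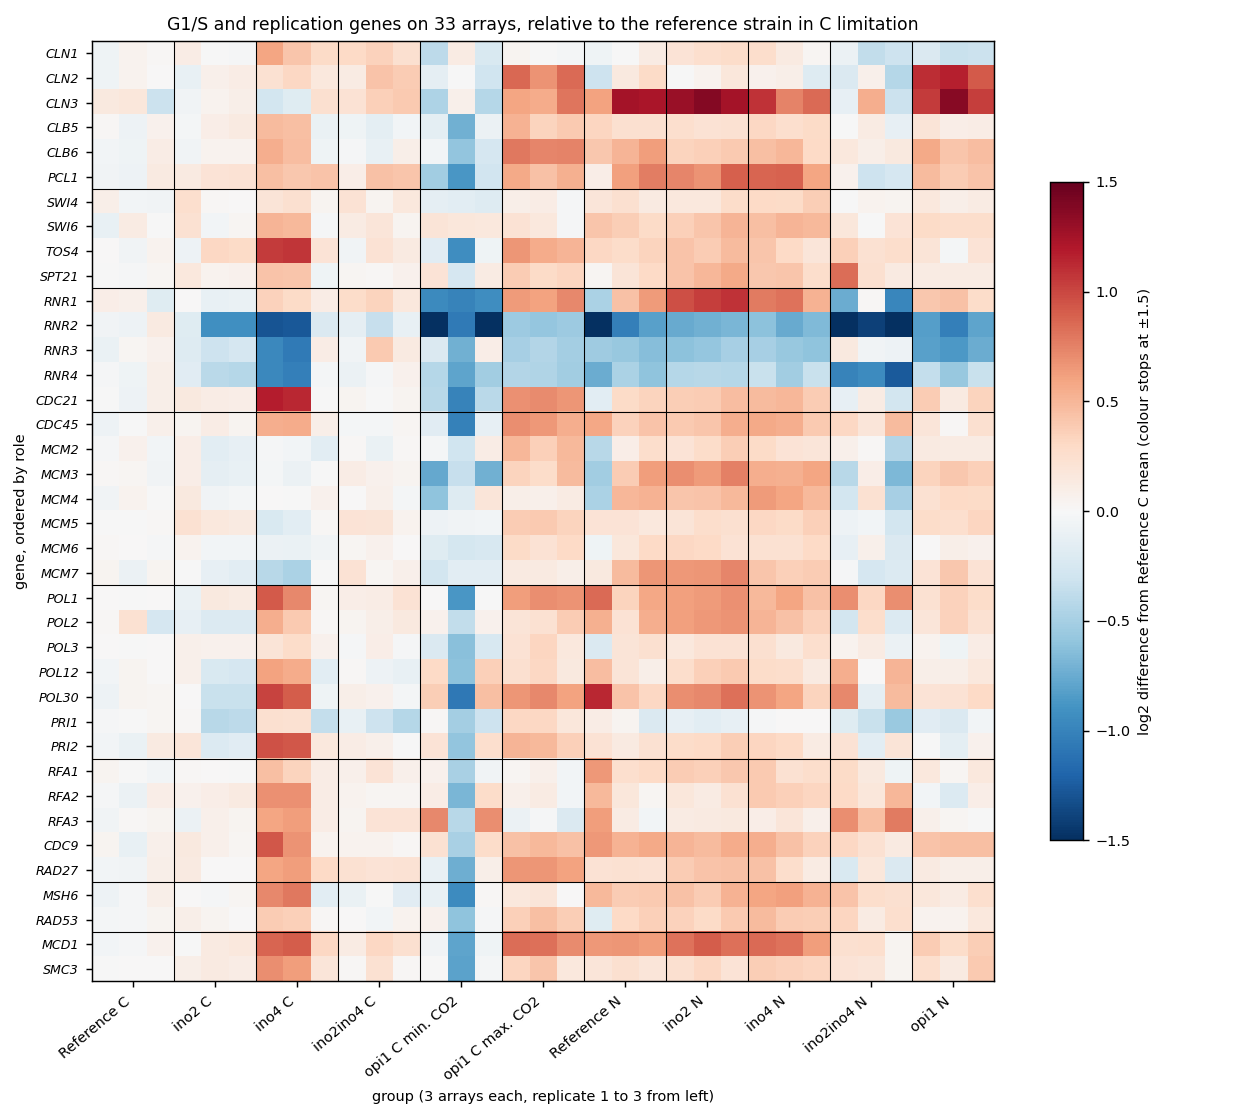
Heat map of the 38 genes (rows, ordered by role) on 33 arrays (columns, 3 for each of the 11 groups, replicate 1 to 3 from left). Colour is the log2 difference from the mean of the C-limited reference, and stops at ±1.5. Minimum CO2 replicate 2 and C-limited *ino4*Δ replicates 1 and 2 stand apart from the other arrays of their groups, and *RNR2* is the row with the widest range, 2.44 between its highest and lowest group mean.

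Across the 11 groups the members spread about as far as other genes. The distance from a gene's highest to its lowest group mean had a median of 0.81 (log2) over the members, from 0.48 for *SWI6* to 2.44 for *RNR2*, beside 0.83 over all 5449 genes. The low end was shared by more members than the high end. For 21 of the 38 members (55.3%) *opi1*Δ at minimum CO2 had the lowest mean, and this was so for 23.0% of all genes. The arrays of that group were uneven. The members' median against the C-limited reference was -0.11, -0.60 and -0.06 on its replicates 1, 2 and 3. The high end was divided: *opi1*Δ at maximum CO2 and N-limited *ino2*Δ had the highest mean for 9 members each, and C-limited and N-limited *ino4*Δ for 6 each. For all genes these shares were 22.0%, 6.63%, 9.21% and 9.23%. *RNR2* and *RNR4*, the small subunits of ribonucleotide reductase, were the only members with the highest mean in the C-limited reference. Their lowest mean was in N-limited *ino2*Δ*ino4*Δ, which was the lowest group for 6 members in all.

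The first comparison was between both CO2 phases of C-limited *opi1*Δ. At maximum CO2, 21 of the 38 members were up-regulated and none was down-regulated (limma, adjusted p below 0.01 over all genes). The background was high: 45.4% of all genes were called in this comparison, 28.4% as higher and 17.0% as lower, and the members' median log2 difference was 0.53, beside 0.10 over all genes. All 3 arrays at maximum CO2 lay above all 3 at minimum CO2 for 28 members, which held for 38.1% of all genes. The split of calls over all genes moved with the scaling: 62.6% of them were higher as deposited, 53.1% with arrays centred on their median and 52.2% after quantile normalisation, when the median over all genes was 0.00 and 0.01 and 20 and 19 members were called, all as higher. In bulk samples such as these, fewer cells in a cell cycle phase and less RNA per cell cannot be told apart.

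Among the cyclins, 5 of 6 rose. *CLN2*, a G1 cyclin that drives passage through Start, stood at 8.28, 8.10 and 8.27 at maximum CO2 and at 7.28, 7.41 and 7.13 at minimum CO2. The groups did not overlap, and the difference was 0.94 ± 0.13 (log2 ± SE), or 1.93-fold. *CLN3*, the most upstream cyclin of G1, stood at 8.04, 8.01 and 8.26 against 6.99, 7.53 and 7.03, with replicate 2 the highest of the minimum CO2 arrays. It rose by 0.92 ± 0.20. The S-phase cyclins *CLB5* (0.74 ± 0.13) and *CLB6* (1.05 ± 0.12) and the cyclin partner of Pho85, *PCL1* (1.07 ± 0.14), also rose, while *CLN1* differed by 0.17 ± 0.10 and was not called (adjusted p = 0.146). Of the regulators, *TOS4*, a forkhead-associated protein that SBF and MBF switch on, rose by 0.97 ± 0.18. *SWI4*, the DNA-binding subunit of SBF, was called by a narrow margin with a small difference of 0.22 ± 0.07 (adjusted p = 0.00989), which fell to 0.13 (adjusted p = 0.166) with arrays centred on their median. *SWI6*, the subunit that SBF and MBF share, gave -0.06 ± 0.10, and *SPT21*, needed for transcription of histone genes, 0.30 ± 0.14, and neither was called.

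The genes of deoxynucleotide synthesis divided. *RNR1*, the main large subunit of ribonucleotide reductase, stood at 9.12, 9.08 and 9.20 at maximum CO2 and at 7.52, 7.47 and 7.55 at minimum CO2. Replicates of either phase differed by little, unlike many other members at minimum CO2, and the difference of 1.62 ± 0.20 (3.07-fold, adjusted p = 2.6e-07) was the largest of the 38. *CDC21*, thymidylate synthase, stood at 7.34, 7.37 and 7.31 against 6.24, 5.66 and 6.25. It rose by 1.29 ± 0.20 (2.45-fold). The small subunit genes did not follow as clearly. *RNR2* stood at 10.29, 10.25 and 10.29 against 8.97, 9.78 and 9.20, without overlap, but with a difference of 0.96 ± 0.41 it was not called (adjusted p = 0.0486). *RNR4* (0.11 ± 0.16) and the DNA damage-inducible large subunit *RNR3* (-0.20 ± 0.20) overlapped between phases.

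**Figure D2:**
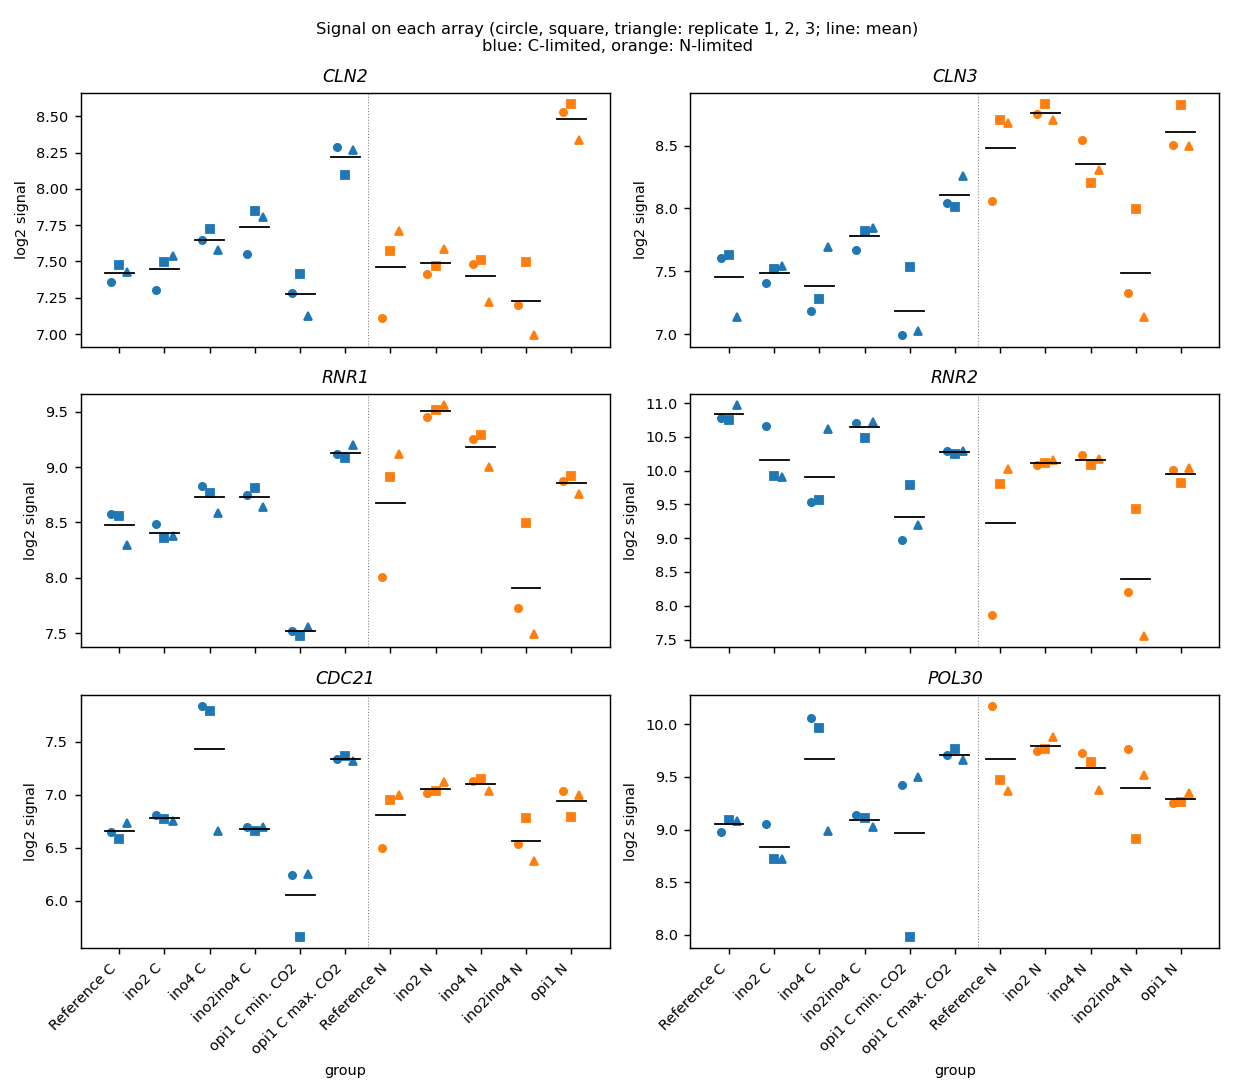
Log2 signal of 6 members on each array, by group, with C-limited groups in blue and N-limited groups in orange; circle, square and triangle are replicates 1, 2 and 3 and the line is the mean. Each panel has its own vertical axis, since signals are not comparable between probe sets. *RNR1* stood between 7.47 and 7.55 at minimum CO2 and between 9.08 and 9.20 at maximum CO2, and *POL30* at minimum CO2 spanned 7.98 to 9.50.

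At the replication fork, all 7 genes of the helicase and its loading were higher in mean, and 5 were called. *CDC45*, which activates the Mcm2-7 helicase, stood at 7.29, 7.24 and 7.15 against 6.42, 5.59 and 6.47, and rose by 1.06 ± 0.15. The helicase subunits *MCM3* (0.98 ± 0.19), *MCM2* (0.52 ± 0.13), *MCM6* (0.50 ± 0.07) and *MCM5* (0.42 ± 0.07) rose, while *MCM7* (0.32 ± 0.11) and *MCM4* (0.30 ± 0.19) did not pass the test. Of 7 genes of polymerases, primase and clamp, 3 rose: *POL1*, the catalytic subunit of polymerase alpha (0.96 ± 0.19), *POL3*, that of polymerase delta (0.59 ± 0.10), and the primase subunit *PRI1* (0.53 ± 0.14). *POL30*, which encodes the sliding clamp PCNA, stood at 9.71, 9.77 and 9.66 against 9.42, 7.98 and 9.50. Every array at maximum CO2 lay above every array at minimum CO2, but the difference of 0.75 ± 0.29 was not called (adjusted p = 0.0314). Replicate 2 at minimum CO2 was far below the others, and *POL30* was not called without it either.

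None of the genes of the single-strand binding protein RPA was called. *RFA1* (0.18 ± 0.12), *RFA2* (0.15 ± 0.17) and *RFA3* (-0.44 ± 0.20) all overlapped between phases, as *MCM4* and the polymerase alpha subunit *POL12* (0.22 ± 0.19) also did. *RFA3* stood at 8.30, 8.37 and 8.18 at maximum CO2 and at 9.11, 7.98 and 9.09 at minimum CO2, where replicate 2 was below and replicates 1 and 3 above every array of the other phase. Of the remaining members, the flap endonuclease *RAD27* (0.89 ± 0.13), the cohesin subunits *MCD1* (1.09 ± 0.14) and *SMC3* (0.57 ± 0.14) and the checkpoint kinase *RAD53* (0.58 ± 0.13) rose. DNA ligase *CDC9* (0.45 ± 0.16, adjusted p = 0.0174) and the mismatch recognition gene *MSH6* (0.46 ± 0.18, adjusted p = 0.0363) did not pass.

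The arrays at minimum CO2 were uneven. The members' median against the C-limited reference was -0.11, -0.60 and -0.06 on replicates 1, 2 and 3 at minimum CO2, and 0.35, 0.33 and 0.34 at maximum CO2. Replicate 2 minus the mean of the other minimum CO2 arrays was -1.48 for *POL30*, -1.12 for *RFA3*, -0.94 for *POL12* and -0.90 for *MSH6*, but 0.70 for *RNR2* and 0.52 for *CLN3*. Other gene groups moved with the members on the same arrays. The median of 20 rRNA processing genes was 0.09, -1.20 and 0.06 at minimum CO2 and 1.042, 0.952 and 1.004 at maximum CO2. All 20 rose between the phases, beside 28.4% of all genes called as higher. The median of 20 general stress genes was -2.32, -2.28 and -2.24 at maximum CO2, and all 20 fell, beside 17.0% of all genes called as lower. Their part in the members' difference was not tested. Leaving out each of the 6 arrays in turn, 17 of the 21 kept their call in every fit. *MCM2* (0.41, adjusted p = 0.0166) and *SMC3* (0.31, adjusted p = 0.0159) lost it without minimum CO2 replicate 2, a fit in which *RFA3* was called as lower at maximum CO2; *PRI1* lost it without maximum CO2 replicates 1 or 2 or minimum CO2 replicates 2 or 3, at 0.41 to 0.51, and *SWI4* without any one of these or minimum CO2 replicate 1, at 0.19 to 0.23. Without the 5 arrays of the shared deviation, which leaves only replicate 2 at minimum CO2 with its spread taken from the other groups, 29 members were called, 19 of the 21 among them. That fit is no replicate check, since replicate 2 is the array on which the members were lowest. *CLN3* (0.57, adjusted p = 0.0119) and *SWI4* were not.

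**Figure D3:**
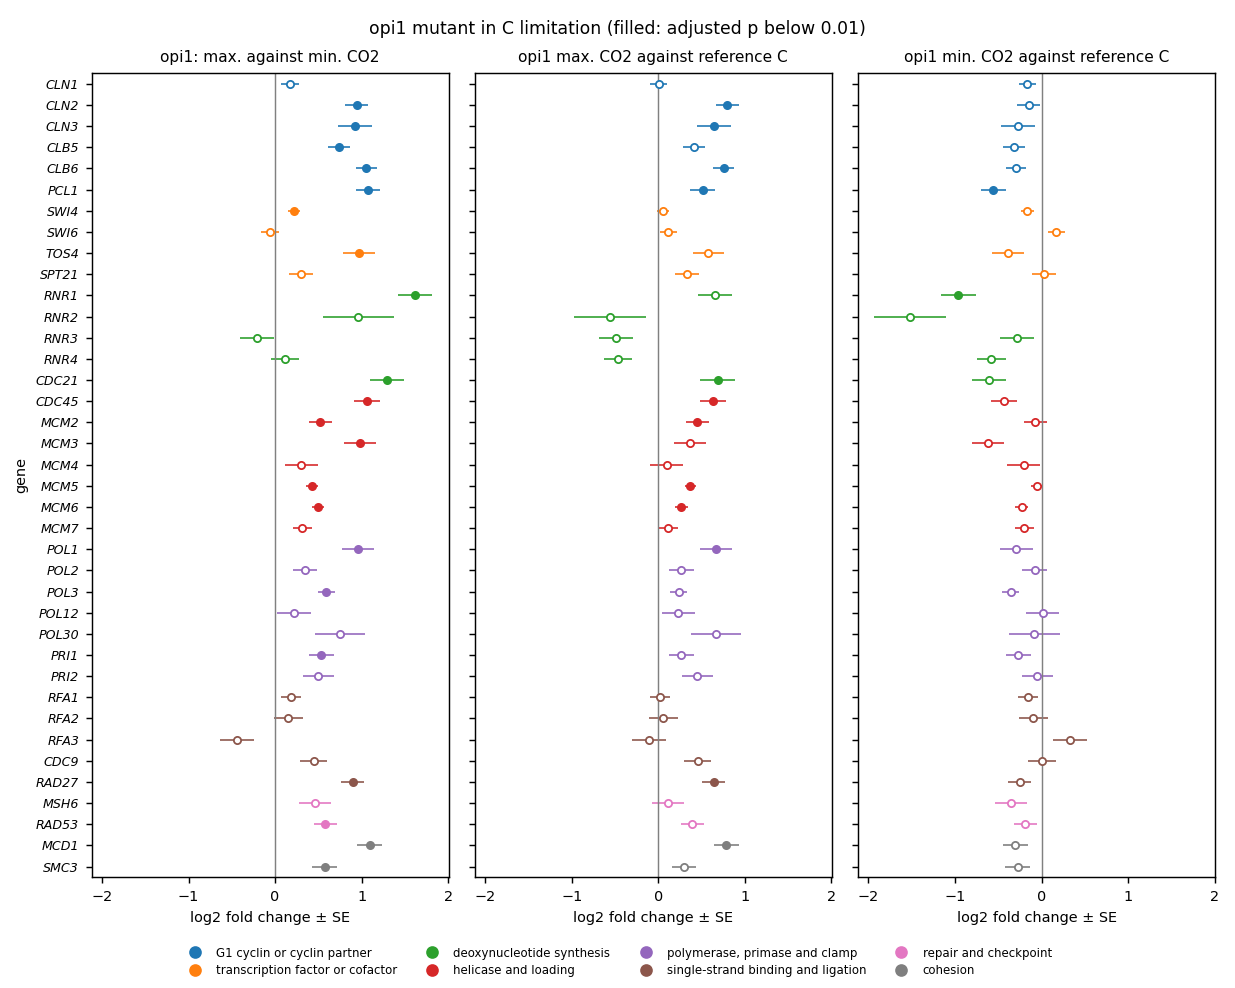
Log2 fold change ± SE of each member (rows, coloured by role) in *opi1*Δ at maximum against minimum CO2, and in each phase against the C-limited reference (3 arrays per group; filled points, adjusted p below 0.01). Of the 38 members, 21 are filled in the left panel, 12 in the middle panel and 2 in the right panel. The comparisons share arrays.

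The neighbours of the members in the same pathway were examined in a list of 72 measured genes of G1/S regulation, origin licensing, fork proteins, nucleotide pools, cohesion and chromatin assembly. Of these 28 were higher and 2 lower at maximum CO2 (38.9% and 2.78%, beside 28.4% and 17.0% of all genes). Their median was 0.33, beside 0.10 over all genes. The called genes with the largest changes were *FAR1*, the inhibitor of G1 cyclin kinase (1.42 ± 0.22), *RFC3*, a subunit of the clamp loader (1.41 ± 0.23), *HCM1*, a transcription factor of S phase (1.30 ± 0.33), and *SLD5*, a subunit of the GINS complex (1.02 ± 0.14). The lists of G2/M and M/G1 genes did not show such a one-sided count. Among 19 G2/M genes 3 were higher and 5 lower (15.8% and 26.3%), and among 15 M/G1 genes 1 was higher and 1 lower (6.67% each). *HOF1*, which acts in cytokinesis, fell by 0.68, and *CLB4*, a mitotic cyclin, rose by 0.55. The M/G1 count hides a split at minimum CO2. The M/G1 median against the C-limited reference was -1.07, 0.25 and -0.997 on replicates 1, 2 and 3 there. At maximum CO2 it was -0.78, -0.69 and -0.71. In that phase 14 of the 15 genes lay wholly below the reference (28.9% of all genes did). Of the 15, 4 were called as lower and 1 as higher (26.7% and 6.67%, beside 13.7% and 17.5% of all genes). The balanced count between phases therefore does not show that M/G1 genes stayed at the reference level.

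Each phase was then set against the C-limited reference, so that both comparisons and the one between phases share arrays. At maximum CO2, 12 members were up-regulated and none was down-regulated, against 31.1% of all genes called and 17.5% called as higher. They were the cyclins *CLN2* (0.80 ± 0.13), *CLB6* (0.76 ± 0.12), *CLN3* (0.65 ± 0.20) and *PCL1* (0.51 ± 0.14), then *MCD1* (0.79 ± 0.14), *CDC21* (0.69 ± 0.20), *POL1* (0.67 ± 0.19), *RAD27* (0.64 ± 0.13), *CDC45* (0.63 ± 0.15), *MCM2* (0.45 ± 0.13), *MCM5* (0.37 ± 0.07) and *MCM6* (0.27 ± 0.07). *RNR2*, *RNR3* and *RNR4* lay below the reference on every array (28.9% of all genes did), at -0.56 ± 0.41, -0.49 ± 0.20 and -0.47 ± 0.16, and none was called. In the leave-one-out fits 6 to 8 members were called, and *CLN2*, *CLB6*, *CDC45*, *MCM5*, *RAD27* and *MCD1* in every one of them; without the 5 arrays, none of which belongs to either group, the smaller shared estimate of the spread gave 21. At minimum CO2 only *RNR1* (-0.96 ± 0.20) and *PCL1* (-0.56 ± 0.14) passed the test, both lower, against 7.73% of all genes called and 4.48% called as lower. The members' median was -0.24 there, beside -0.05 over all genes. *RNR1* stood at 7.52, 7.47 and 7.55 at minimum CO2 against 8.57, 8.56 and 8.30 in the reference, without overlap. Both calls were lost without C-limited reference replicate 1 or replicate 2 (*RNR1* at -0.91 and -0.92, adjusted p = 0.0144 and 0.0126), and *PCL1* was also lost without reference replicate 3 or minimum CO2 replicate 1. Without minimum CO2 replicate 2 the calls were *RFA3* as higher and *CLN1*, *RNR1*, *RNR2* and *MCM3* as lower. Without the 5 arrays, when replicate 2 stands alone, 21 members were lower and none higher, and 15 members lay wholly below the reference in the full set, against 22.8% of all genes. Over all genes 42.0% of the calls were higher as deposited, 62.9% with arrays centred and 65.3% after quantile normalisation, and 2 members were lower under each. *POL30* shows the division, at 9.42 and 9.50 on replicates 1 and 3, above the reference (8.98, 9.09 and 9.08), and at 7.98 on replicate 2, below it.

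The second comparison was between N and C limitation in the reference strain. In N limitation 8 members were up-regulated and 2 down-regulated, against 23.3% of all genes called, 14.7% as higher and 8.61% as lower. The members' median difference was 0.21, beside 0.06 over all genes, and 19 members lay wholly above the C-limited arrays, which held for 30.0% of all genes, and 3 wholly below, against 20.1%. *CLN3* stood at 8.06, 8.71 and 8.68 in N limitation and at 7.61, 7.63 and 7.13 in C limitation. Every N-limited array was above every C-limited one, and the difference was 1.03 ± 0.20 (2.04-fold, adjusted p = 0.000217). *MCD1*, the cohesin subunit that is cleaved to let chromatids part, stood at 8.07, 8.08 and 8.04 against 7.38, 7.40 and 7.48. The groups did not overlap, and it rose by 0.65 ± 0.14. *CDC9* (0.58 ± 0.16), *CLB6* (0.51 ± 0.12), *PCL1* (0.50 ± 0.14), *MCM7* (0.43 ± 0.11), *RFA1* (0.40 ± 0.12) and *SWI6* (0.35 ± 0.10) were the other members that rose. *PCL1* overlapped between the groups, since replicate 1 in N limitation (7.82) was below replicate 3 in C limitation (7.85).

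Both members that were lower encode small subunits of ribonucleotide reductase. *RNR2* stood at 7.86, 9.81 and 10.02 in N limitation and at 10.78, 10.76 and 10.97 in C limitation. It was lower on every N-limited array and lowest by far on replicate 1, and the difference was -1.61 ± 0.41. *RNR4*, at 10.26, 10.53 and 10.39 against 10.98, 10.94 and 11.08, was lower by a log2 difference of -0.61 ± 0.16. *RNR3* was also below on every array (-0.58 ± 0.20, adjusted p = 0.0235), while *RNR1* overlapped (0.20 ± 0.20). The other strains did not share 1 direction for *RNR2*, and their limitations were not tested against each other. It averaged 10.16 ± 0.07 (SD, n = 3) in N-limited and 9.90 ± 0.62 in C-limited *ino4*Δ, 10.11 ± 0.03 and 10.16 ± 0.43 in *ino2*Δ, and 8.39 ± 0.96 and 10.64 ± 0.13 in *ino2*Δ*ino4*Δ. N-limited *opi1*Δ, at 9.95 ± 0.12, lay between minimum CO2 (9.32 ± 0.42) and maximum CO2 (10.28 ± 0.02). *CLN1* and *CLN2*, the late G1 cyclins downstream of *CLN3*, differed by 0.02 ± 0.10 and 0.04 ± 0.13 in the reference and were not called.

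Replicate 1 of the N-limited reference is an array of the shared deviation. Against the mean of replicates 2 and 3 it was lower for *RNR2* (-2.05), *MCM3* (-1.02), *RNR1* (-1.01), *MCM4* (-0.99), *CLN3* (-0.64), *MCM2* (-0.61) and *PCL1* (-0.60), and higher for *POL30* (0.76) and *RFA3* (0.58). Without it the *RNR2* difference was -0.92 and was not called (adjusted p = 0.0477). Without all 5 arrays 13 members were higher and 1 lower, with *RNR1*, *CDC45*, *MCM3*, *MCM4*, *MCM6* and *RAD53* newly called and *SWI6* and *RNR4* lost. Only *CLN3* and *MCD1* were called in every leave-one-out fit. The count was 4 without C-limited replicate 1 or 2 or N-limited replicate 3, 5 without C-limited replicate 3, 6 without N-limited replicate 1 and 8 without N-limited replicate 2. Among the 72 pathway neighbours 15 were higher and 2 lower (20.8% and 2.78%, beside 14.7% and 8.61% of all genes). The largest changes were in *FAR1* (2.01 ± 0.22), the ribonucleotide reductase inhibitor *SML1* (1.05 ± 0.18), the G1/S regulator *MSA1* (0.88 ± 0.10) and the cohesin subunit *IRR1* (0.86 ± 0.15). G2/M genes were also higher in N limitation (7 of 19, or 36.8%, and none lower), among them *ALK1* (0.90 ± 0.14) and the transcription factor *SWI5* (0.84 ± 0.18). That share was above the 21.1% of the members called as higher. The members that rose here and those that rose at maximum CO2 had *CLB6*, *CLN3*, *MCD1* and *PCL1* in common, 4 of 8 and 4 of 21. Of all 38 members 55.3% rose at maximum CO2, so 4 of 8 is not above that share.

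**Figure D4:**
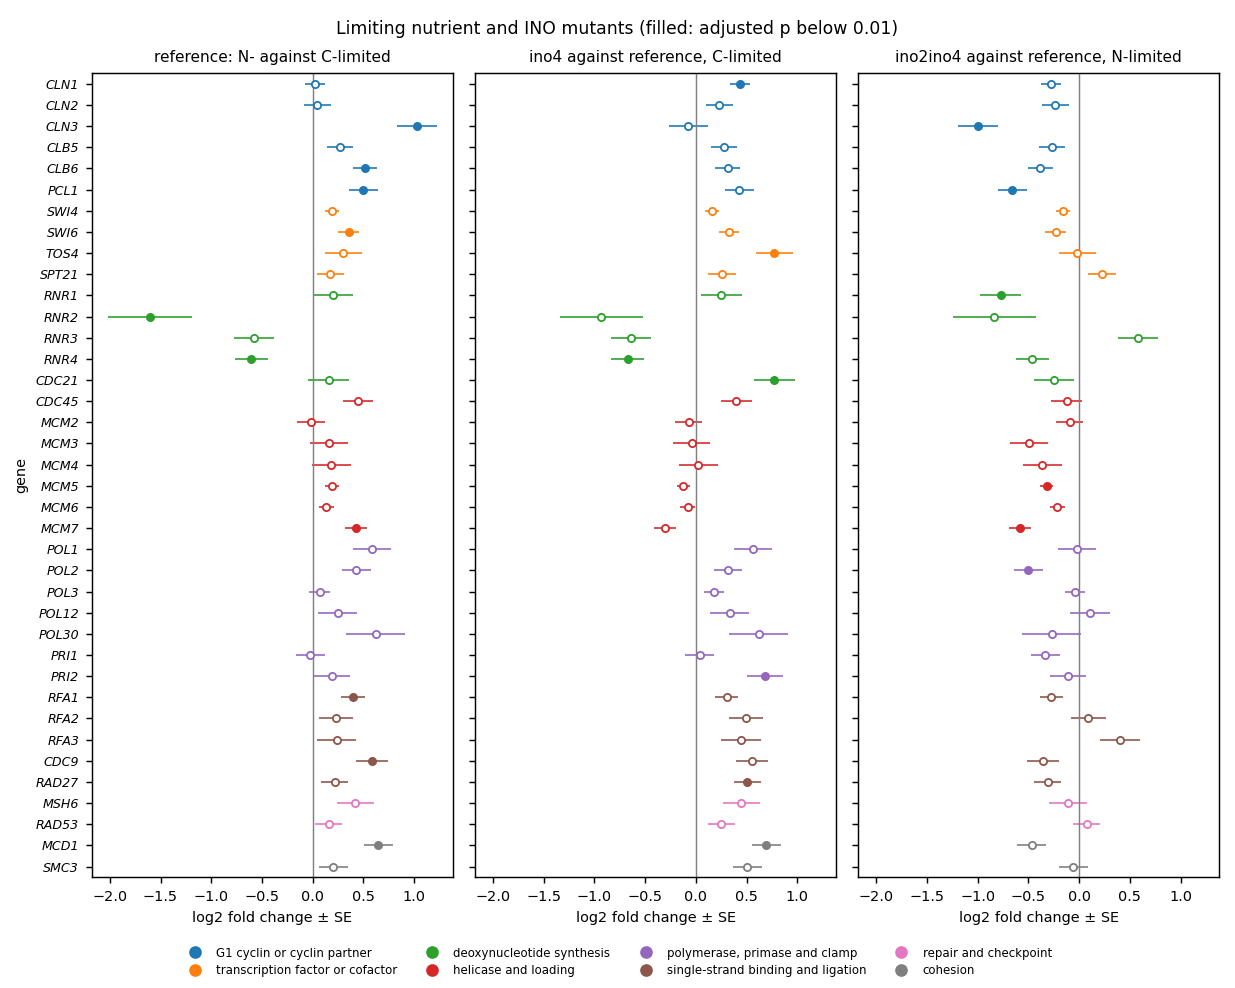
Log2 fold change ± SE of each member (rows, coloured by role) in the N-limited against the C-limited reference, in C-limited *ino4*Δ against its reference and in N-limited *ino2*Δ*ino4*Δ against its reference (3 arrays per group; filled points, adjusted p below 0.01). The panels hold 10, 7 and 6 filled points; *RNR2* has the widest error bar, with an SE of 0.41, in each.

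The remaining comparisons set each INO mutant against the reference of the same limitation. In C-limited *ino4*Δ 6 members were up-regulated and 1 was down-regulated, against 13.4% of all genes called, 6.64% as higher and 6.74% as lower. *TOS4* (0.77 ± 0.18), *CDC21* (0.77 ± 0.20), *MCD1* (0.70 ± 0.14), *PRI2* (0.68 ± 0.18), *RAD27* (0.51 ± 0.13) and *CLN1* (0.43 ± 0.10) rose, and *RNR4* was lower (-0.67 ± 0.16). The 3 arrays did not move together. *CDC21* stood at 7.84, 7.79 and 6.65 on replicates 1, 2 and 3, beside 6.65, 6.58 and 6.74 in the reference, so that replicate 3 lay within the reference range. *RNR3* stood at 6.07, 5.99 and 7.15 beside 6.95, 7.08 and 7.11, again with replicate 3 at the level of the reference. The clamp gene *POL30*, which was not called, stood at 10.06, 9.96 and 8.98 beside 8.98, 9.09 and 9.08.

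The members' median against the reference was 0.47, 0.41 and 0.04 on the 3 *ino4*Δ arrays. On the same arrays the median of the rRNA processing genes was -1.48, -1.50 and -0.39 and that of the M/G1 genes -1.37, -1.37 and 0.15; of these lists 16 of 20 and 3 of 15 genes were lower and none was higher. Their part in the result was not tested. Replicate 3 is the array labelled *ino4*Δ on which *INO2* was low. Without it 15 members were higher and 3 lower, with all 7 of the full fit among them, and without the 4 arrays of mismatched INO levels 14 were higher and 3 lower. The share of all genes called in these fits is not given here, so whether the members rose more than other genes cannot be read from them. Without replicate 1 or replicate 2 none was called, and without C-limited reference replicate 1, 2 or 3 the count was 1, 2 and 3. Of the 72 neighbours 9 were higher in the full fit (12.5%, beside 6.64% of all genes) and none was lower (6.74% of all genes were). The largest were *IRR1* (0.63 ± 0.15), the fork protection gene *CSM3* (0.61 ± 0.14), *RNH201* of ribonuclease H2 (0.58 ± 0.15) and the exonuclease *EXO1* (0.57 ± 0.11).

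In N-limited *ino2*Δ*ino4*Δ, 6 members were down-regulated and none up-regulated, against 16.1% of all genes called and 8.09% called as lower. The members' median was -0.26, beside 0.01 over all genes. *CLN3* stood at 7.33, 7.997 and 7.14, beside 8.06, 8.71 and 8.68 in the N-limited reference. The groups did not overlap, and *CLN3* was lower by a log2 difference of -0.99 ± 0.20 (1.99-fold, adjusted p = 0.000406). *PCL1* stood at 7.78, 7.41 and 7.47 beside 7.82, 8.33 and 8.49, and was lower by -0.66 ± 0.14. *MCM7*, at 7.84, 7.61 and 7.66 beside 8.01, 8.34 and 8.52, was lower by -0.59 ± 0.11. *RNR1* (-0.77 ± 0.20), *POL2*, the catalytic subunit of polymerase epsilon (-0.50 ± 0.14), and *MCM5* (-0.32 ± 0.07) were also called, and *RNR1* and *POL2* overlapped with the reference.

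Both groups of this comparison hold arrays of the shared deviation. In the double mutant replicates 1 and 3 minus replicate 2 gave -1.56 for *RNR2*, -0.88 for *RNR1*, -0.76 for *CLN3*, -0.65 for *MCM3*, -0.62 for *MCM4* and 0.73 for *POL30*. Each of these has the sign it had in replicate 1 of the N-limited reference. Some members called here had opposite signs in the double mutant and in that reference array. They were *PCL1* (0.21 and -0.60), *MCM7* (0.14 and -0.42), *POL2* (-0.50 and 0.16) and, with small values, *MCM5* (-0.13 and 0.02). Without the 5 arrays, which leaves 1 array of the double mutant with its spread taken from the other groups, 5 members were lower, *CLN1*, *PCL1*, *RNR1*, *MCM3* and *MCM7*, of which 3 were called in the full fit; *CLN3* was then at -0.70 (adjusted p = 0.0150), *MCM5* at -0.22 (adjusted p = 0.0596) and *POL2* at -0.12 (adjusted p = 0.693). *CLN3*, *MCM5* and *MCM7* were called in every leave-one-out fit, where the count was 9 without reference replicate 1, 3 without reference replicate 3, 4 without double mutant replicate 1 or 3, and 5 and 8 without replicate 2 of the reference and of the double mutant. *PCL1* was lost without reference replicate 3 (-0.52, adjusted p = 0.0159). Among the 72 neighbours 2 were higher (2.78%, beside 8.06% of all genes) and 5 lower (6.94%, beside 8.09%), shares below those of all genes. The largest changes were *FAR1* at -1.21 ± 0.22, *HUG1*, an inhibitor of ribonucleotide reductase, at 1.11 ± 0.17, the licensing factor *TAH11* at 0.83 ± 0.20 and *SML1* at -0.77 ± 0.18. The *HUG1* signal was dim, with a mean of 5.58 over all arrays, close to the background level of 5.47.

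In N-limited *opi1*Δ 1 member changed, against 2.53% of all genes called and 1.87% called as higher. *CLN2* stood at 8.53, 8.58 and 8.34, beside 7.11, 7.57 and 7.71 in the N-limited reference. Every *opi1*Δ array was above every reference array, and the difference of 1.02 ± 0.13 (2.02-fold, adjusted p = 6.24e-06) was called in all 6 leave-one-out fits. It was not called with only these groups fitted or by the methods' t-test (adjusted p = 0.166). Without reference replicate 1, with the other arrays of the shared deviation, it was 0.84. *CLN1*, the closest relative of *CLN2*, stood at 7.35, 7.24 and 7.25 beside 7.51, 7.57 and 7.70 and was not called in the full fit. *CLN2* was also high in C-limited *opi1*Δ at maximum CO2, as given above, and was not at minimum CO2, where it averaged 7.27 ± 0.14 (SD, n = 3) beside 7.42 ± 0.06 in the reference. Among the neighbours *FAR1* (1.06 ± 0.22) and the Pho85 cyclin *PCL2* (0.43 ± 0.10) rose (2.78%, beside 1.87% of all genes). None was called as lower (0.661% of all genes were). The neighbours' median was -0.10, beside -0.03 over all genes.

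In the other mutant comparisons no member passed the test in limma, and none did in the methods' t-test. In C-limited *ino2*Δ 2 members had an unadjusted p below 0.05, in C-limited *ino2*Δ*ino4*Δ 4, in N-limited *ino2*Δ 7 and in N-limited *ino4*Δ 3. These were 5.26%, 10.5%, 18.4% and 7.89% of the members, beside 14.5%, 12.3%, 11.8% and 12.8% of all genes, so that only the third share was above that of all genes. The shares of all genes called were 0.826%, 0.569%, 0.606% and 0.551%. These counts were 0 also without the 4 arrays of mismatched INO levels, which leaves 1 array of C-limited *ino2*Δ, assumed to vary like the other groups. The members' medians were 0.03, 0.07, 0.13 and 0.12 in the same order. The highest mean of *RNR1* in the series was in N-limited *ino2*Δ, at 9.45, 9.52 and 9.56, beside 8.01, 8.91 and 9.12 in the N-limited reference. It was not called there in the full fit, and was when the 5 arrays were left out.

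Whether a deletion acted differently in both limitations was tested as the N-limited minus the C-limited effect, with *opi1*Δ at minimum CO2 as the C-limited group. For *opi1*Δ, *CLN2* (1.16 ± 0.19, adjusted p = 0.000229) and *RNR1* (1.14 ± 0.28, adjusted p = 0.009997) differed, both higher, against 4.73% of all genes called and 2.88% called as higher. The *opi1*Δ effect on *CLN2* was 1.02 in N limitation and -0.15 in C limitation, and that on *RNR1* was 0.17 and -0.96. At maximum CO2, the other C-limited phase, these effects were 0.80 and 0.65, nearer to the N-limited effect for *CLN2* and above it for *RNR1*, and a difference from that phase was not tested. For *ino2*Δ*ino4*Δ, *CLN3* (-1.31 ± 0.28), *PCL1* (-0.97 ± 0.20), *MCM7* (-0.69 ± 0.15), *CLN1* (-0.57 ± 0.14) and *MCM5* (-0.47 ± 0.09) differed, all lower, against 7.6% of all genes called and 4.37% called as lower. Levels of *CLN3* show it: the double mutant was at 7.67, 7.82 and 7.84 in C limitation and at 7.33, 7.997 and 7.14 in N limitation, while the reference was at 7.61, 7.63 and 7.13 and at 8.06, 8.71 and 8.68. For *ino2*Δ no member differed (limma; 5 at an unadjusted p below 0.05, 13.2% beside 16.3% of all genes) against 0.514% of all genes called, and for *ino4*Δ none did (13 at an unadjusted p below 0.05, 34.2% beside 31.3% of all genes) against 3.43% called, but without C-limited *ino4*Δ replicate 3 there were 4 higher and 7 lower.

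**Figure D5:**
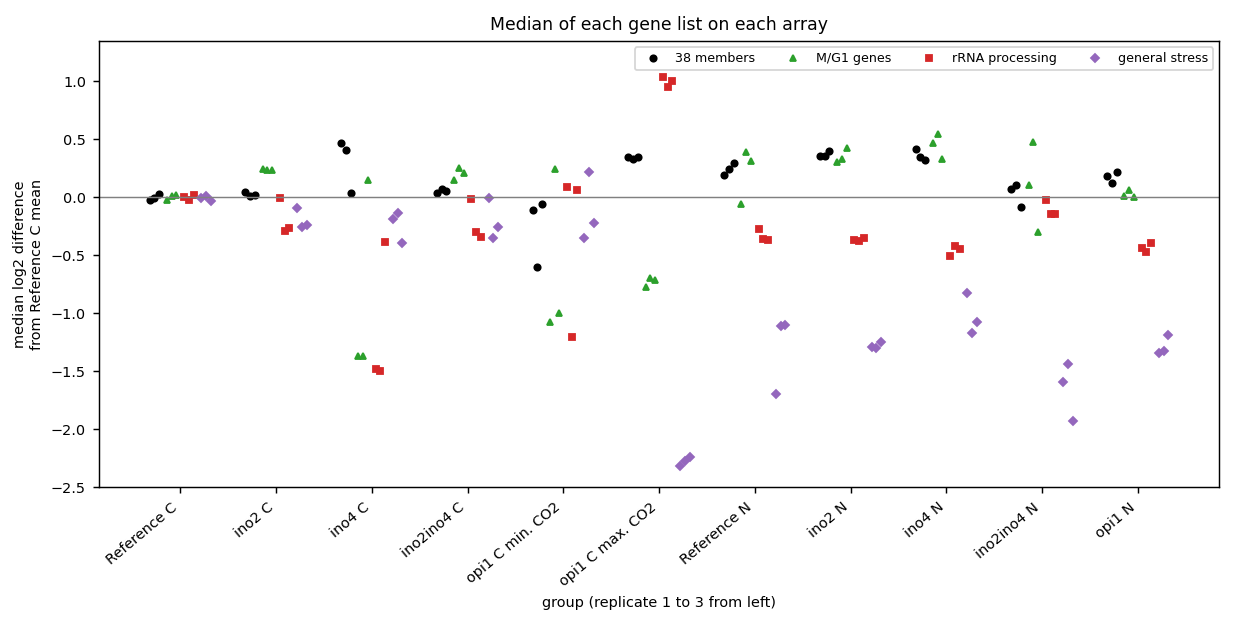
Median log2 difference from the C-limited reference mean on each array, for the 38 members, 15 M/G1 genes, 20 rRNA processing genes and 20 general stress genes (groups along the axis, replicate 1 to 3 from left). The members' median is highest on C-limited *ino4*Δ replicate 1 (0.47) and lowest on minimum CO2 replicate 2 (-0.60); the rRNA processing median is near 1 at maximum CO2 only.

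Set side by side over the arrays, the members as a list were above the C-limited reference on every N-limited array but replicate 3 of the double mutant. Their median per array was 0.20 to 0.30 in the N-limited reference, 0.35 to 0.40 in *ino2*Δ, 0.32 to 0.41 in *ino4*Δ, 0.12 to 0.21 in *opi1*Δ and -0.08 to 0.11 in *ino2*Δ*ino4*Δ, while C-limited *ino2*Δ and *ino2*Δ*ino4*Δ lay between 0.01 and 0.07. The median over all genes was -0.01 to 0.11 on the N-limited arrays. On double mutant replicates 1 and 2 it was 0.11 and 0.10, beside 0.07 and 0.11 for the members, so the members did not stand above other genes there. The same N-limited arrays had a rRNA processing median of -0.51 to -0.02 and a general stress median of -1.93 to -0.82. Their G2/M median was 0.11 to 0.49 and that of the pathway neighbours 0.06 to 0.31. A median above the C-limited reference was therefore not particular to the members. These medians are descriptions, all relative to the same 3 reference arrays.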

How the data were processed

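RNA of 33 chemostat samples was hybridised to Affymetrix Yeast Genome 2.0 arrays. The authors deposited log2 signals, 1 per probe set and array, computed with PLIER per the submitters' processing notes; its version and options, and any constant added before the logarithm, are not given in the sources used here. Such options can change differences between dim signals. The values were used as deposited, with no further scaling.

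Of 10928 probe sets, 7245 were listed in the platform annotation, 7244 with 1 gene symbol and 1 with several, and 3683 were unnamed here. After 11 symbols were updated by gene identifier, 5498 probe sets were paired with an *S. cerevisiae* gene. For 47 genes with several probe sets the one with the highest mean was used, which gave 5449 genes, 288 of them below background on average. All were tested.

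A model with 1 coefficient per group was fitted over all arrays with limma 3.58.1 in R 4.3.3, with moderated statistics and Benjamini-Hochberg adjustment over all genes within each of 15 contrasts, and an adjusted p below 0.01 was a call. Groups came from the labels, and every value column was assigned to a sample. The number of arrays limits the precision. In simulated data for the comparison of CO2 phases, over 5449 genes, 83 of 100 genes changed by 1 and 98 of 100 changed by 2 on the log2 scale were recovered, with 5 false calls. The simulated noise was independent between arrays, and each gene had the same spread in every group. The real arrays had shared deviations and unequal spread, so these counts do not measure the error of the real comparison. No 2 arrays were identical, and the SD of the difference between replicates was 0.0428 to 0.679.

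The members and lists, and the sets of 5 and 4 arrays left out, were chosen with earlier results of these data known. All members may be named, and of each other list up to 4 called genes per comparison, those with the largest change. The lists held 74 related genes (72 measured), 20 G2/M genes (19 measured), 15 M/G1 genes, 20 rRNA processing genes and 20 general stress genes. Alternatives were array centring, quantile normalisation, a constant of 16, averaging of probe sets, limma with trend and robust options, other thresholds, a replicate block, the groups of a comparison alone, the methods' t-test and leaving out arrays. Sequences and coordinates were not used here.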

Additional observations from a re-analysis of the deposited data

Results flagged for a closer look

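The N-limited and C-limited effects of a deletion differed for 7 values of the members, each by the test of the difference itself in limma over all genes. For *opi1*Δ, with minimum CO2 as the C-limited group, the difference was 1.16 for *CLN2* (adjusted p = 0.000229) and 1.14 for *RNR1* (adjusted p = 0.009997). *CLN2* was called in every leave-one-out fit, whereas *RNR1* lost its call when any of 9 arrays was left out, among them N-limited reference replicate 1 (0.80, adjusted p = 0.0328), and kept it without the 5 arrays of the shared deviation (0.84). At maximum CO2 the *opi1*Δ effect was 0.80 on *CLN2* and 0.65 on *RNR1*, and the difference from N limitation was not tested for that phase. For *ino2*Δ*ino4*Δ the difference was -1.31 for *CLN3*, -0.97 for *PCL1*, -0.69 for *MCM7*, -0.57 for *CLN1* and -0.47 for *MCM5*. *CLN3*, *PCL1* and *MCM5* were called in every leave-one-out fit. Without the 5 arrays *MCM5* was at -0.37 and was not called (adjusted p = 0.0113), and *CLN1* and *MCM7* were at -0.73 and -0.93. Without the 4 arrays of mismatched INO levels *RNR1* (adjusted p = 0.0135) and *CLN1* (adjusted p = 0.0103) were not called. Groups of 3 arrays were not examined for single outlying values.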

How the results depend on the processing

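Over 66 called values of members no alternative turned a sign. Calls were kept by 61 with arrays centred, 59 after quantile normalisation, 63 with a constant of 16, 66 with probe sets averaged, 61 with trend and robust options, 58 without the 5 arrays, 59 without the 4 arrays and 16 with the methods' t-test. In leave-one-out fits 295 of 438 were kept. The causes were not tested.

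Counts of members called, where they moved by over 1.5 times, were these. The share of all genes called under each alternative is not given beside them. Between CO2 phases the count of 21 became 10 with only those groups fitted and 4 by the t-test. For the N- against C-limited reference, 10 became 16 at a threshold of 0.05, 1 at 0.001, 4 with only those groups and 4 by the t-test. For maximum CO2 against the reference, 12 became 20, 5, 28 and 21 in the same order, and 21 without the 5 arrays. For minimum CO2, 2 became 9, 0, 1 and 0 in that order, 1 with the constant, 1 with trend and 21 without the 5 arrays. For C-limited *ino4*Δ, 7 became 15, 0, 0 and 0 in that order, 19 without the 5 arrays and 17 without the 4 arrays. For N-limited *opi1*Δ, 1 became 0 with only those groups and by the t-test, and 2 without the 5 arrays. For N-limited *ino2*Δ, 0 became 1 after quantile normalisation, at 0.05 and without the 5 arrays. For N-limited *ino2*Δ*ino4*Δ, 6 became 13, 3, 0 and 0 in that order and 10 without the 4 arrays. For the difference of *opi1*Δ effects, 2 became 5, 1, 0 and 0 in that order, 8 without the 5 arrays and 1 after quantile normalisation, with the constant and with trend. For that of *ino4*Δ, 0 became 4 at 0.05, 1 with arrays centred, 1 without the 5 arrays and 10 without the 4 arrays. For that of *ino2*Δ*ino4*Δ, 5 became 10, 1, 1 and 1.

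Leaving out 1 array at a time, the counts ranged from 19 to 23 between CO2 phases, 4 to 8 for N against C limitation, 6 to 8 at maximum CO2, 0 to 5 at minimum CO2, 0 to 18 in C-limited *ino4*Δ, 1 to 1 in N-limited *opi1*Δ, 0 to 1 in N-limited *ino2*Δ and 3 to 9 in N-limited *ino2*Δ*ino4*Δ. They were 1 to 5, 0 to 11 and 3 to 9 for the differences of effects (*opi1*Δ, *ino4*Δ, then *ino2*Δ*ino4*Δ), and 0 in the remaining comparisons.

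Same-numbered deviations correlated at -0.76 to 0.69, and in none of 11 comparisons were all over 0.1. A single outlying array among 3 can dominate these deviations. Whether same-numbered arrays are paired therefore stays undetermined. With the replicate number as a block the counts were 21 between CO2 phases, 10 for N against C limitation and 5 in N-limited *ino2*Δ*ino4*Δ, where *POL2* was not called (adjusted p = 0.0123). *MCM2* at maximum CO2 against the reference was also not called with the block (adjusted p = 0.0112). For the difference of *opi1*Δ effects, 60.9% of all calls were higher, 46.5% with arrays centred and 43.2% after quantile normalisation.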
